A study of Arabidopsis thaliana with 12 samples.

Results

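The expression of genes in Arabidopsis thaliana seedlings that carry slim1-1 was compared between cadmium and arsenite. The comparison used the 3 arrays labelled slim1-1 on 100 µM cadmium and the 3 arrays labelled slim1-1 on 20 µM arsenite, which were chosen by these labels and are 6 of the 12 arrays of the series. All 6 samples were whole seedlings aged 14 days, grown on minimal medium, and all carry the mutant allele slim1-1 of SLIM1 (also named EIL3). The other 6 arrays hold wild-type seedlings (Col-0) under the same 2 metals, with 3 arrays each, and were used to test whether the difference between metals depended on genotype. The replicates are biological by the series' design, no untreated seedlings were analysed here, and "higher under cadmium" therefore always means higher than under arsenite. The labels describe 12 days without metal and then 48 h on arsenite for every sample, those labelled cadmium included, so the time on cadmium is not clearly given. Metal, dose, time of exposure and array set cannot be told apart in this design.

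SLIM1, a DNA-binding relative of the ethylene regulator EIN3, controls many of the genes that plants switch on when sulfur runs short. Cadmium and arsenite both bind thiol groups of proteins and both are chelated by glutathione and by phytochelatins, peptides that are made from glutathione and hence from assimilated sulfur. Cadmium also competes with iron and zinc for uptake, whereas arsenite enters cells through aquaporin channels. Plants answer proteins that misfold in the cytosol with heat shock proteins, and many stresses raise anthocyanins, red pigments of the flavonoid pathway.

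Expression was measured from total RNA with Affymetrix arrays that hold 22810 probe sets and carry 1 sample each, and the deposited log2 values were made with RMA. The deposited sets of the 2 metals did not share 1 normalisation, with a step of -1.281 on the log2 scale from the medians of the mutant arsenite arrays to those of the cadmium arrays, so the 6 arrays were quantile normalised together before any difference was taken. Of the probe sets, 13513 could be paired with 1 gene, which gave 13356 genes for the tests, and SLIM1 itself was not analysed here by name. Levels correlated across genes with r of 0.992 to 0.996 between replicates and with r of 0.945 to 0.947 between metals. The number of arrays limits the precision, with a median standard error of 0.0934 for the difference between metals. After the joint normalisation, the mean of 9 bacterial and phage control probe sets, which report transcripts added at hybridisation, lay 1.51 higher on the cadmium arrays (exact permutation test over arrays, two-sided, p = 0.1, the smallest value that 3 against 3 arrays allow). On the deposited values this mean lay only 0.424 higher on the cadmium arrays, so the joint normalisation widened the difference. The mean of 12 poly-A spike controls differed by 0.431 between cadmium and arsenite after it (exact p = 0.2). As deposited, that mean differed by -0.883. The 3′ to 5′ signal difference of the actin control was 0.417 larger under cadmium (exact p = 0.1), that of the ubiquitin control 0.198 larger (exact p = 0.1) and that of the GAPDH control 0.152 larger (exact p = 0.2). A second series of probe sets for the same controls did not repeat this for actin and GAPDH. There the 3′ and 5′ probe sets differed between cadmium and arsenite by -0.0601 and 0.0313 for actin. The values were 0.181 and 0.206 for GAPDH, and 0.17 and 0.114 for ubiquitin. The part of these steps in the gene differences was not tested.

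The seedling label was compared with the levels of a shoot gene and of a root hair gene. RCA, the activase of the carbon-fixing enzyme Rubisco, had 13.27, 13.31 and 13.36 under arsenite and 13.70, 13.70 and 13.65 under cadmium on the log2 scale, among the highest levels of the arrays. There were no detection calls, but the root hair expansin gene EXPA7 lay above the lower quartile of genes in both groups. Its values were 6.13, 6.05 and 5.50 under arsenite and 4.74, 4.78 and 4.78 under cadmium. It was 2.18-fold lower under cadmium (log2 difference -1.13 ± 0.15, SE, adjusted p = 0.000463), and fewer root hair cells or less root tissue cannot be told apart from less RNA per cell. The other 2 measured root markers did not pass the test, although their values also lay lower under cadmium.

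Cadmium and arsenite gave widely different transcriptomes in slim1-1. With limma and Benjamini-Hochberg adjustment over all genes, 6741 of 13356 genes (50.5%) differed between the metals at an adjusted p under 0.05, with 3677 (27.5%) higher and 3064 (22.9%) lower under cadmium. Many of these differences were small, since 3620 of the called genes differed by less than 1.5-fold. A difference of at least 2-fold was reached by 1357 genes (10.2%), of which 601 (4.5%) were higher and 756 (5.66%) lower under cadmium. The large differences leaned towards arsenite, with 31 genes at least 16-fold lower and 10 genes at least 16-fold higher under cadmium. The 3 cadmium and 3 arsenite values did not overlap for any of the 1357 genes called at 2-fold, and for 8034 genes (60.2%) overall.

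**Figure D1:**
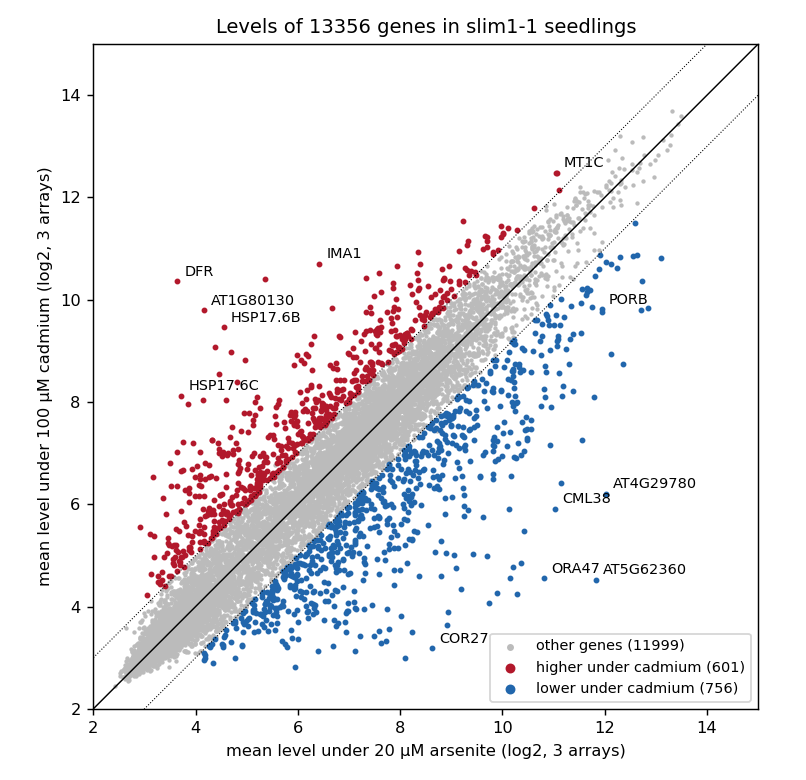
Mean level of each of 13356 genes on the 3 slim1-1 arrays under 100 µM cadmium (y axis) against that on the 3 slim1-1 arrays under 20 µM arsenite (x axis), both log2 after joint quantile normalisation; the solid line marks equal levels and the dotted lines 2-fold differences. The 601 genes called higher under cadmium (red) reach from low to high arsenite levels, and the genes farthest below the line, among them AT5G62360 and ORA47, were among the more abundant transcripts under arsenite.

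The gene with the largest rise under cadmium was DFR, which encodes dihydroflavonol reductase, the enzyme that leads flavonoids into anthocyanins. Its levels were 3.68, 3.67 and 3.57 on the arsenite arrays and 10.89, 10.61 and 9.57 on the cadmium arrays. The difference was 6.72 ± 0.29 on the log2 scale (105-fold, adjusted p = 9.79e-07), and since the arsenite mean lies below the lower quartile of genes (3.675), where signals are not shown to be above background, the fold is not exact. UGT75C1 (AT4G14090), an anthocyanin glucosyltransferase, had 3.82, 3.80 and 3.94 under arsenite and 8.42, 8.18 and 7.26 under cadmium, a difference of 4.10 ± 0.26 (17.1-fold, adjusted p = 7.02e-06). For both genes cadmium replicate 3 was the lowest of its group, yet still more than 3 log2 units above every arsenite array.

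Heat shock proteins and an iron signal stood next to the anthocyanin genes. The cytosolic small heat shock protein gene HSP17.6B (AT2G29500) had 4.52, 5.11 and 4.0 under arsenite and 9.04, 9.62 and 9.73 under cadmium (difference 4.92 ± 0.28, 30.2-fold, adjusted p = 3.71e-06). HSP17.6C (AT1G53540) had 3.57, 3.55 and 4.03 under arsenite and 7.56, 8.31 and 8.49 under cadmium (4.40 ± 0.24, 21.2-fold, adjusted p = 2.9e-06). The arsenite levels of both genes lay below the median of all genes. That of HSP17.6C had a mean of 3.72, close to the lower quartile of genes (3.675), so its fold is not exact. IMA1 (AT1G47400), a small peptide that triggers the iron uptake response of roots, had 7.07, 5.82 and 6.37 under arsenite and 10.66, 10.71 and 10.74 under cadmium (4.28 ± 0.26, 19.5-fold, adjusted p = 5.88e-06). Its cadmium values were almost identical, whereas its arsenite values spread over more than 1 log2 unit with replicate 1 highest.

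The other 7 of the 12 largest rises had arsenite means below the median of all genes (5.81) and cadmium means above 8. A cadmium mean above that median was required by the choice of the 12 genes. AT1G80130, which encodes a tetratricopeptide repeat-like protein, differed by 5.63 ± 0.10 (49.5-fold, adjusted p = 2.09e-08). AT3G28220, for a TRAF-like protein, differed by 5.05 ± 0.20, and AT3G28270, for a protein related to the membrane protein At14a, by 4.68 ± 0.21. AT1G52000, for a jacalin-type lectin, was 19.5-fold higher under cadmium. The class III peroxidases AT1G49570 and AT5G19890, a family that acts in the cell wall, were 14.7-fold and 14.5-fold higher. The peroxidase list does not hold this pair. Of its 6 measured members 1 was higher and 1 lower at 2-fold, against 4.5% and 5.66% of all genes, and 4 were not called. The lower one, AT5G64120, was 3.57-fold lower (adjusted p = 0.00407). AT4G24700 was 16.9-fold higher, with cadmium values between 8.46 and 8.60.

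The largest falls under cadmium, that is differences from arsenite, were steeper than the rises. The choice of these genes required an arsenite mean above the median of all genes (5.81), so their high arsenite levels follow in part from it. AT5G62360, which encodes a pectin methylesterase inhibitor of the cell wall, had 11.79, 11.80 and 11.88 under arsenite and 4.46, 4.58 and 4.52 under cadmium, a difference of -7.30 ± 0.07 (158-fold, adjusted p = 1.19e-09). ORA47, an AP2/ERF factor that switches on jasmonate synthesis, had 10.94, 10.82 and 10.67 under arsenite and 4.57, 4.75 and 4.34 under cadmium (-6.25 ± 0.12, 76.4-fold, adjusted p = 3.28e-08). Both genes thus were among the abundant transcripts under arsenite and lay below that median under cadmium.

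The calmodulin-like gene CML38, which encodes a calcium sensor of wounding and low oxygen, had 11.17, 11.07 and 10.84 under arsenite and 5.52, 6.22 and 6.0 under cadmium (-5.11 ± 0.17, 34.6-fold, adjusted p = 3.02e-07). AT3G02840, annotated as an immediate-early gene induced by fungal elicitor, was 43.1-fold lower under cadmium, and AT4G29780 was 56.1-fold lower, from arsenite levels of 11.85 to 12.17. COR27 and COR28 (AT4G33980), a pair of cold-regulated proteins that act in the circadian clock, fell together. COR27 had 8.29, 8.63 and 8.96 under arsenite and 3.11, 3.20 and 3.24 under cadmium (-5.44 ± 0.15), a cadmium level below the lower quartile of genes, so that its 43.6-fold difference is not exact. COR28 was 51.0-fold lower (-5.67 ± 0.14). The J-domain co-chaperone gene AT1G56300 was 49.3-fold lower under cadmium (-5.62 ± 0.11). The other 4 of the 12 largest falls, AT4G27654, AT1G15010, AT4G27657 and AT3G48650, were 38.7-fold to 65.5-fold lower, and the cadmium mean of AT3G48650 also lay below the lower quartile.

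**Figure D2:**
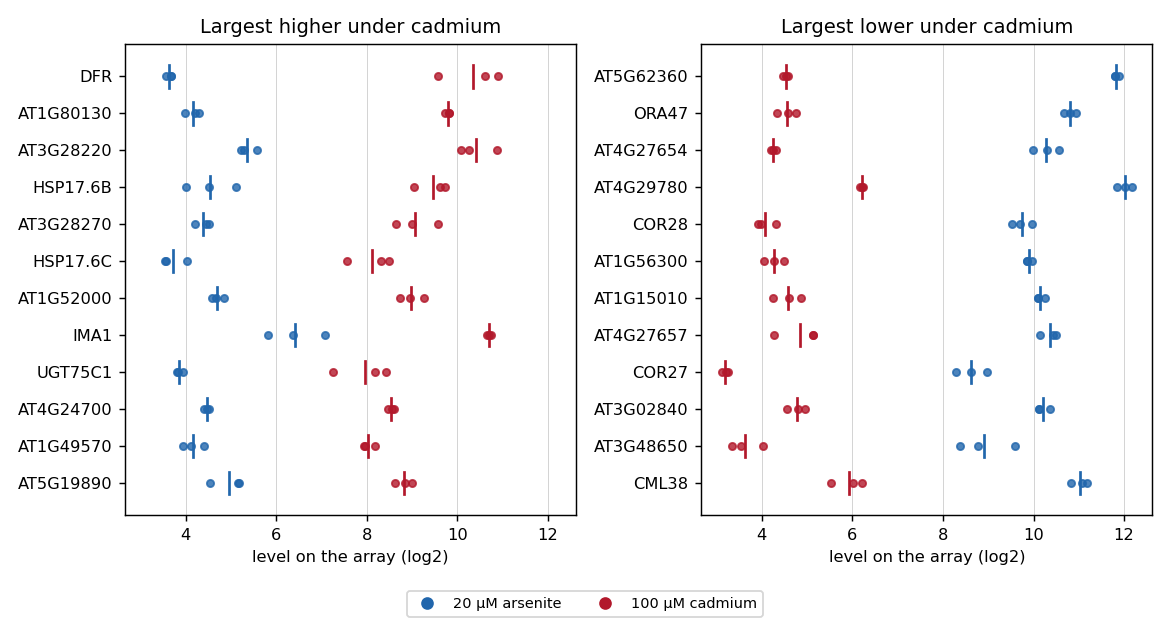
Levels (log2, x axis) of the 12 genes with the largest rise under cadmium (left) and the 12 with the largest fall (right) on each slim1-1 array, with 3 points per metal and a vertical bar at the group mean. No gene overlaps between the metals, as the choice of these genes required. The arsenite values of the right panel lie between 8.29 and 12.17, and IMA1 shows the widest spread among the arsenite values on the left.

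Most of the measured heat shock proteins and heat-responsive chaperones were higher under cadmium. In the endoplasmic reticulum stress response 0 of 13 measured genes reached 2-fold, against 10.2% of all genes, a share at which few of 13 would be expected. Of 10 measured small heat shock protein genes, 7 were called at 2-fold higher and 0 lower, with a median difference of 2.05 against 0.028 for all genes tested, of which 4.5% were called at 2-fold higher. Besides the HSP17.6 genes, AT1G54050 had 6.45, 6.53 and 5.99 under arsenite and 9.05, 9.55 and 9.27 under cadmium (7.83-fold, adjusted p = 3.97e-06), and AT2G19310 was 3.36-fold higher. Of 7 other measured chaperone genes, 6 were called at 2-fold higher and the last was called at less than 2-fold, with a median of 2.17. AT1G56300, the J-domain gene among the largest falls, is not in this list. Fes1A, a partner that protects cytosolic HSP70, had 5.98, 6.38 and 6.41 under arsenite and 8.87, 9.31 and 9.19 under cadmium (7.29-fold, adjusted p = 2.52e-06). Hop3, which links HSP70 to HSP90, was 3.96-fold higher, the DnaJ gene AT2G20560 5.36-fold higher and the HSP70 gene AT3G09440 2.50-fold higher. Of the endoplasmic reticulum genes, 3 were called higher and 4 lower at any size, against 27.5% and 22.9% of all genes, and the median was 0.00. BZIP28, a membrane-bound sensor factor of this response, fell by 0.94 ± 0.07 (adjusted p = 2.28e-05), from 8.67 to 8.75 under arsenite to 7.72 to 7.85 under cadmium. DER2.2, a derlin of the export of misfolded proteins, fell by 0.79 ± 0.07.

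All 6 measured genes of anthocyanin and flavonol synthesis, of 26 listed, were called at 2-fold higher under cadmium, against 4.5% of all genes. Their differences ran from 1.22 to 6.72, with a median of 2.80. UF3GT, an anthocyanin sugar transferase, had 4.64, 4.47 and 4.68 under arsenite and 8.51, 8.23 and 7.38 under cadmium (10.9-fold, adjusted p = 1.52e-05). UGT78D1, a flavonol rhamnosyltransferase, had 7.57, 7.70 and 7.52 under arsenite and 9.75, 9.62 and 9.46 under cadmium (4.04-fold, adjusted p = 1.53e-06). In each of DFR, UGT75C1, UF3GT and UGT78D1 replicate 3 was the lowest of the cadmium arrays. Over the whole family of UDP-glycosyltransferases the picture was balanced, with 6 of 51 measured genes higher and 6 lower at 2-fold. Over all genes these shares were 4.5% and 5.66%. UGT73B1 was among the lower members of the family, at 3.34-fold (adjusted p = 7.04e-06).

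Few genes of sulfur use could be measured, and those of sulfate reduction were lower under cadmium. SIR, the single sulfite reductase of the plant, had 9.61, 9.91 and 9.92 under arsenite and 8.86, 8.85 and 8.72 under cadmium (log2 difference -1.0 ± 0.10, adjusted p = 9.43e-05). Of the ATP sulfurylase genes, which activate sulfate, APS4 fell by 0.57 ± 0.11 (adjusted p = 0.00354) and APS3 by 0.44 ± 0.09 (adjusted p = 0.00511), and both were named after their values were seen. These are all 3 measured members of 32 listed, and all 3 were called lower, against 22.9% of all genes. BGLU28, a glucosidase strongly induced by low sulfur that releases sulfur from glucosinolates, went the other way, with 4.59, 4.92 and 4.02 under arsenite and 6.85, 6.46 and 7.5 under cadmium (5.37-fold higher, adjusted p = 0.000227). SDI2 (AT1G04770), another marker of low sulfur, did not pass the test, with 9.57, 9.29 and 9.14 under arsenite and 9.72, 9.86 and 9.38 under cadmium (0.32 ± 0.15, adjusted p = 0.111). It was called with a common array median (0.40, adjusted p = 0.0449), with array weights (0.39, adjusted p = 0.025), without arsenite replicate 1 (adjusted p = 0.0378) and without cadmium replicate 3 (adjusted p = 0.0323).

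Genes that act on glutathione and metals were partly higher under cadmium. GR1, the glutathione reductase of the cytosol, had 9.22, 8.91 and 8.70 under arsenite and 10.68, 10.60 and 10.71 under cadmium (3.29-fold higher, adjusted p = 1.61e-05). The metallothionein gene MT1C, for a small cysteine-rich protein that binds metals, was already abundant under arsenite, with 11.43, 11.06 and 10.67, and reached 12.38, 12.34 and 12.74 under cadmium (2.69-fold, adjusted p = 0.000416). It was the only one of 6 measured metal transport and binding genes that reached 2-fold, against 10.2% of all genes. Of 14 measured glutathione transferase genes, which couple glutathione to toxic compounds, 3 were higher and 2 lower at 2-fold, against 4.5% and 5.66% of all genes. GSTU16 was 3.33-fold and GSTU22 2.21-fold higher, whereas GSTU28 was 2.89-fold and GSTU26 2.59-fold lower. The mitochondrial stress gene AT5G09570 (12CYS) had 4.02, 3.88 and 3.71 under arsenite and 6.03, 6.39 and 6.55 under cadmium (5.48-fold, adjusted p = 3.99e-06).

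Of 7 measured genes of iron deficiency, 2 were called at 2-fold higher under cadmium, against 4.5% of all genes, and 0 lower. The regulator BHLH101, which with its close relatives switches on iron uptake, had 7.04, 5.68 and 6.12 under arsenite and 8.48, 8.79 and 8.62 under cadmium (5.11-fold, adjusted p = 0.000308). As for IMA1, arsenite replicate 1 was the highest of its group. The median of the list was 0.46, so that IMA1 and BHLH101 stood apart from its other 5 members, which differed by less than 1 log2 unit.

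Single genes of calcium signalling and early defence were far lower under cadmium. Of 8 measured calmodulin-like genes, 4 were lower and 1 higher at 2-fold, with a median of -1.36, against 5.66% of all genes called at 2-fold lower. CML37, a close relative of CML38, had 8.28, 8.39 and 8.14 under arsenite and 4.77, 5.81 and 5.85 under cadmium (6.93-fold lower, adjusted p = 6.08e-05), and CML23 was 4.69-fold lower. CML41 was the exception, at 2.84-fold higher under cadmium. The defence regulators WRKY22 and WRKY53 were 9.67-fold lower (adjusted p = 1.93e-07) and 8.45-fold lower (adjusted p = 4.79e-06). WRKY22 had 9.21, 9.09 and 9.42 under arsenite and 5.92, 5.93 and 6.05 under cadmium. The other 5 measured WRKY genes differed by at most 0.28 log2 units, so the median of the list was 0.11.

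PUB22, PUB23 and PUB24, a trio of ubiquitin ligases that dampen immune signalling, were all lower under cadmium. PUB23 had 10.37, 10.47 and 10.58 under arsenite and 7.37, 7.29 and 7.21 under cadmium (9.10-fold, adjusted p = 1.06e-07), PUB22 was 5.94-fold lower and PUB24 4.41-fold lower. With PUB19, at 2.83-fold, they were the 4 of 9 measured U-box genes that reached 2-fold, against 10.2% of all genes. The berberine bridge enzyme-like genes AT4G20830, for an oxidase of cell wall fragments, and AT4G20860 were 2.67-fold and 2.53-fold lower, whereas AT5G44390 of the same family was 2.70-fold higher. Of 15 measured defensin-like genes 2 were lower at 2-fold, against 5.66% of all genes, and 6 had means below the lower quartile under both metals. LCR69 was 2.91-fold lower (adjusted p = 4.53e-06) and PDF2.1 2.23-fold lower (adjusted p = 0.0126). The PDF2.1 difference fell from -1.15 to -0.77 without arsenite replicate 1, and its call was lost on within-array ranks (adjusted p = 0.0607).

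Among the CC-type glutaredoxins, small plant-specific proteins that act on transcription factors and nitrate signalling, the members split. Of 17 measured genes 7 were lower and 3 higher at 2-fold, against 5.66% and 4.5% of all genes, with a median of -0.62. Relative to all genes the median was -0.65, and it became -0.20 among genes above the median level. AT3G62950 had 6.60, 6.47 and 7.01 under arsenite and 3.42, 3.04 and 3.20 under cadmium (adjusted p = 1.02e-06), and AT4G15690 had 5.73, 5.84 and 6.27 under arsenite and 2.63, 2.90 and 2.91 under cadmium. AT4G15680, which lies in the same cluster of near-identical genes as AT4G15690, fell by 2.49 ± 0.18. The cadmium means of these 3 genes lie below the lower quartile, so no fold is given, and signals of such similar genes may cross-hybridise. AT4G33040 went against them, with 6.73, 6.79 and 6.77 under arsenite and 8.41, 8.24 and 8.11 under cadmium (2.81-fold higher, adjusted p = 5.64e-06).

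The clock gene GI had 9.56, 9.47 and 9.63 under arsenite and 6.52, 6.46 and 6.70 under cadmium (7.95-fold lower, adjusted p = 1.79e-07). It was the only measured member of the clock list, and the time of day of harvest is not given in the labels. Cold and dehydration genes moved apart from each other. COR15B, which protects chloroplast membranes in the cold, had 10.54, 9.61 and 9.32 under arsenite and 6.62, 6.58 and 6.54 under cadmium (9.43-fold lower, adjusted p = 3.02e-05), and the dehydrin COR47 was 2.72-fold lower. The late embryogenesis gene LEA4-5 was 2.63-fold higher. COR15A, the neighbour and close relative of COR15B, had 8.54, 7.02 and 6.68 under arsenite and 8.76, 8.80 and 8.80 under cadmium (1.37 ± 0.41, adjusted p = 0.0222). Arsenite replicate 1 nearly reached its cadmium level, and the COR15A call was lost when any of the other 5 arrays was left out (adjusted p up to 0.0778), while without arsenite replicate 1 it had an adjusted p of 8.19e-06.

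Auxin-responsive genes were higher under cadmium where they differed. Of 13 measured genes 6 were called at 2-fold higher and 0 lower, against 4.5% and 5.66% of all genes, with a median of 0.90. GH3.3, which couples auxin to amino acids, had 6.26, 7.02 and 6.71 under arsenite and 9.87, 9.78 and 9.87 under cadmium (9.05-fold, adjusted p = 2.77e-06), and its relative GH3.17 was 2.34-fold higher. HAT2, an auxin-induced homeodomain factor, had 8.34, 8.38 and 8.31 under arsenite and 10.32, 10.37 and 10.44 under cadmium (4.09-fold, adjusted p = 3.95e-07).

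Genes of the growing cell wall and of the cytoskeleton differed in both directions. Expansins, which loosen walls, had 2 of 10 measured genes higher at 2-fold and 1, EXPA7, lower, against 4.5% and 5.66% of all genes. EXPA16 had 4.43, 4.34 and 4.56 under arsenite and 7.52, 7.45 and 6.63 under cadmium (6.77-fold, adjusted p = 2.21e-05), and EXPA8 was 2.64-fold higher. The xyloglucan-modifying genes XTH18 and XTH32 moved apart, at 3.83-fold lower (adjusted p = 1.05e-06) and 3.47-fold higher (adjusted p = 2.12e-06). TBL26, of a family that acetylates wall polymers, was 6.14-fold higher. Of 23 measured members of this family 2 were higher and 2 lower at 2-fold, against 4.5% and 5.66% of all genes, with a median of -0.02. The peroxidase PRX52, which takes part in lignin formation, rose from 3.55, 3.56 and 3.82 to 6.91, 7.04 and 7.13, with an arsenite level below the lower quartile. The β-tubulin genes TUB9 and TUB5 were 2.46-fold and 2.03-fold lower, the only 2 of 7 measured tubulin genes at 2-fold, against 10.2% of all genes. PRL, which encodes the replication protein MCM7 and was the only measured gene of the cell cycle list, was 2.24-fold lower under cadmium (adjusted p = 2.31e-05).

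Photosynthesis showed single differences rather than a common one. Of 7 measured nuclear photosystem genes 1 reached 2-fold, against 10.2% of all genes, and the median was 0.06. That gene was LHCB4.3, for a minor antenna protein, with 6.55, 6.70 and 6.81 under arsenite and 8.79, 8.72 and 8.48 under cadmium (3.94-fold higher, adjusted p = 2.95e-06). PORB, the light-dependent enzyme of chlorophyll synthesis, had 12.02, 11.98 and 11.83 under arsenite and 9.74, 9.75 and 9.96 under cadmium (4.37-fold lower, adjusted p = 9.73e-07). Of 69 measured plastid-encoded genes 6 were higher and 0 lower at 2-fold, against 4.5% and 5.66% of all genes, with a median of 0.06. The NDH complex gene ndhD was 5.98-fold higher, and psbA, for the reaction centre protein D1 of photosystem II, 2.72-fold higher. Plastid transcripts carry few stable poly(A) tails, and the primer of the labelling step is not given in the sources used here. Among 16 measured mitochondrion-encoded genes 2 were higher at 2-fold, against 4.5% of all genes. They included nad6 (1.58 ± 0.19, adjusted p = 0.000246), with an arsenite level below the lower quartile.

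Single genes of sugar transport and of the recycling of cell contents were higher under cadmium. Of 16 measured SWEET genes, which encode sugar carriers, 5 were higher and 0 lower at 2-fold, against 4.5% and 5.66% of all genes. At any size 7 were called higher, 2 lower and 7 not at all, and the median was 0.13. SAG29, which is SWEET15 and marks senescing leaves, had 4.72, 4.59 and 4.83 under arsenite and 7.59, 7.52 and 7.41 under cadmium (6.93-fold, adjusted p = 2.56e-07), and SWEET4 was 4.95-fold higher. The vacuolar protease gene BETA-VPE had 5.03, 4.87 and 4.78 under arsenite and 7.43, 7.54 and 7.34 under cadmium (5.82-fold, adjusted p = 4.43e-07). Of 11 measured autophagy genes 9 were called higher and 0 lower, against 27.5% of all genes, but the differences were small with a median of 0.50. ATG8H, of the family that coats autophagic membranes, was the single one at 2-fold, at 2.38-fold higher (adjusted p = 0.00158). Of 22 measured β-glucosidase genes 5 were higher and 1 lower at 2-fold, against 4.5% and 5.66% of all genes. BGLU40 was 3.07-fold higher and BGLU44 2.78-fold lower.

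**Figure D3:**
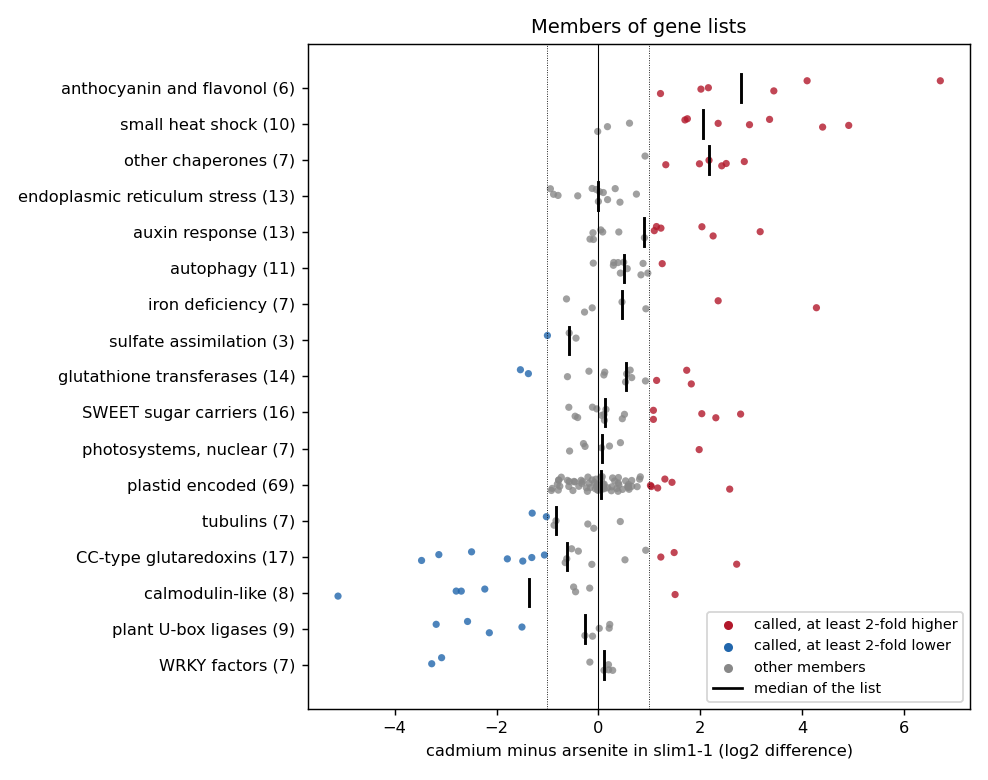
Log2 difference between cadmium and arsenite in slim1-1 (x axis) for each measured member of 17 gene lists, with the number of measured members in brackets; points are shifted vertically at random, black bars mark list medians and dotted lines 2-fold. Anthocyanin, small heat shock protein and other chaperone genes lie to the right, with medians of 2.80, 2.05 and 2.17, the endoplasmic reticulum list centres on 0.00, and single calmodulin-like, U-box, WRKY and glutaredoxin genes reach far to the left.

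Whether slim1-1 differed from wild type in this response was tested as the difference between genotypes of the cadmium minus arsenite difference, on values normalised over all 12 arrays. A step shared by a set of arrays cancels in this contrast. It called 531 genes (3.98%), with 268 (2.01%) above 0 in slim1-1 minus wild type and 263 (1.97%) below 0. This count ranged from 255, without wild-type cadmium replicate 1, to 744, without slim1-1 arsenite replicate 1, and was 1023 with array weights. Of the 1357 genes called at 2-fold in slim1-1, 1169 were not called in the genotype contrast, which does not show that their differences were equal in the genotypes. For the 188 genes in both, the wild-type difference had the same sign in 177, and it was smaller or opposite in 122. Across the 13356 genes the metal differences of the genotypes correlated with r of 0.917, a description in which both axes hold the step between the array sets.

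**Figure D4:**
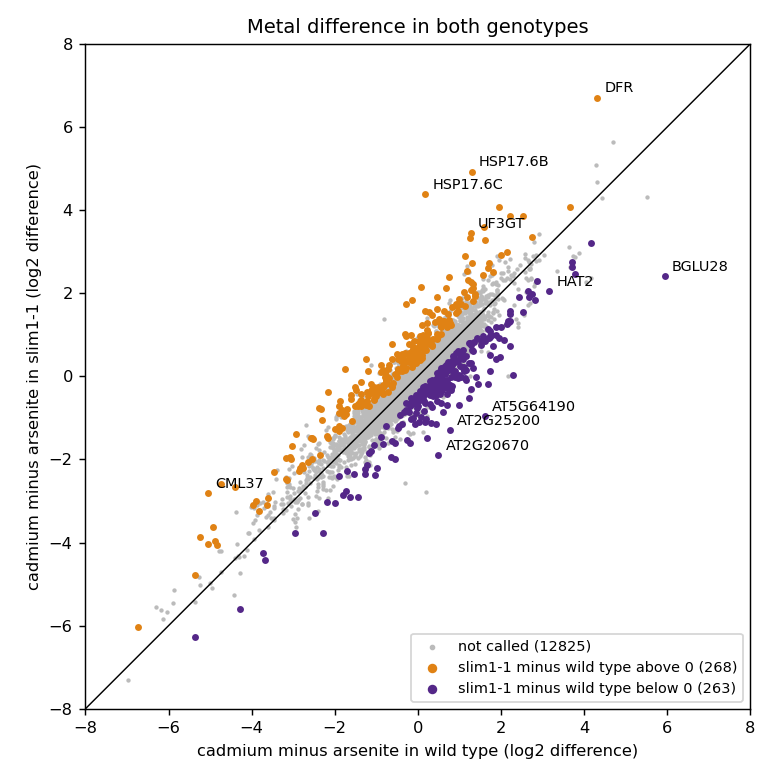
Cadmium minus arsenite difference (log2, values normalised over 12 arrays) of each gene in slim1-1 (y axis) against wild type (x axis), with the 531 genes of the genotype contrast in colour; the line marks equal differences. Most genes follow the line, HSP17.6C, HSP17.6B and DFR lie farthest above it, and BGLU28 lies farthest below it.

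The small heat shock protein genes showed the largest such difference. On the values normalised over 12 arrays, HSP17.6C (AT1G53540) had 3.61, 3.80 and 3.66 in wild type under arsenite and 3.82, 4.01 and 3.78 under cadmium. This difference of 0.18 ± 0.20 did not pass the test in wild type (adjusted p = 0.470), against 4.39 in slim1-1. The wild-type values lay in the range of the slim1-1 arsenite values, near the lower quartile of genes, where signals are not shown to be above background. The difference between genotypes was 4.21 ± 0.28 (adjusted p = 2.84e-05). HSP17.6B (AT2G29500) had 5.75, 6.08 and 5.64 in wild type under cadmium against 9.04, 9.62 and 9.73 in slim1-1 (difference between genotypes 3.63 ± 0.33, adjusted p = 0.000271). Fes1A had 7.12, 7.07 and 7.58 in wild type under cadmium against 8.86, 9.32 and 9.20 in slim1-1 (1.75 ± 0.21, adjusted p = 0.000879). The genotype contrast called 5 of 10 small heat shock protein genes and 2 of 7 other chaperone genes, against 3.98% of all genes. It called neither AT2G19310 (0.11 ± 0.14, adjusted p = 0.754) nor Hop3, which had 1.90 in wild type and 1.96 in slim1-1. Among the 5 was AT1G54050, whose call was lost in 9 of the 12 fits that left out 1 array.

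Most of the anthocyanin genes also differed more between metals in the mutant. DFR had 7.65, 8.07 and 7.90 in wild type under cadmium, below every mutant cadmium array, while under arsenite it had 3.56, 3.62 and 3.47 in wild type and 3.70, 3.69 and 3.59 in slim1-1 (difference between genotypes 2.39 ± 0.35, adjusted p = 0.00283). UF3GT had 5.97, 6.09 and 5.68 in wild type under cadmium (2.18 ± 0.30, adjusted p = 0.0021), and UGT75C1 (AT4G14090) had 5.84, 6.10 and 6.04 (2.13 ± 0.30, adjusted p = 0.00228). The contrast called 4 of the 6 genes of the list, against 3.98% of all genes. UGT78D1 was not called, with a difference of 1.90 in wild type and 2.03 in slim1-1.

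BGLU28 and HAT2 rose less in slim1-1 than in wild type. BGLU28 had 3.84, 3.89 and 3.89 in wild type under arsenite and 9.47, 9.99 and 9.99 under cadmium, a rise of 5.94 against 2.42 in slim1-1 (difference between genotypes -3.53 ± 0.36, adjusted p = 0.000448). Of the ATP sulfurylase genes, APS4 fell more in wild type than in slim1-1 (0.80 ± 0.16, adjusted p = 0.0173), and APS3 was 0.44 higher under cadmium in wild type but lower in slim1-1 (-0.88 ± 0.21, adjusted p = 0.0414). The APS3 call was lost in 8 of 12 fits that left out 1 array. SIR was not called (-0.26 ± 0.13, adjusted p = 0.305). HAT2 rose by 3.16 in wild type against 2.05 in slim1-1 (-1.11 ± 0.12, adjusted p = 0.000488). Wild type had 7.52, 7.75 and 7.83 under arsenite and 10.79, 10.81 and 10.97 under cadmium, below and above the mutant arrays of the same metal.

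The genes AT2G20670, AT5G64190 and AT2G25200 had metal differences of opposite sign in the genotypes. AT2G20670 had 10.64, 10.44 and 10.91 under arsenite and 11.21, 10.88 and 11.38 under cadmium in wild type, a difference of 0.49. In slim1-1 it fell by 1.90 (difference between genotypes -2.39 ± 0.21, adjusted p = 0.000249). AT5G64190 was 1.61 higher under cadmium in wild type and fell by 0.96 in slim1-1 (-2.57 ± 0.27, adjusted p = 0.000487). AT2G25200 was 0.78 higher in wild type and fell by 1.30 in slim1-1 (-2.07 ± 0.19, adjusted p = 0.000296). They were not the only such genes, since APS3 above also had opposite signs. The genotype contrast also called genes that kept 1 sign or did not pass the test between metals in slim1-1. AT3G60270, for a cupredoxin-like copper protein, was 1.69 higher under cadmium in wild type but did not pass the test in slim1-1 (-0.19 ± 0.22, adjusted p = 0.513), with a difference between genotypes of -1.88 ± 0.28 (adjusted p = 0.00317). AT1G72060, for a protease inhibitor, had a metal difference of 0.03 ± 0.29 in slim1-1 and 2.30 in wild type, and its genotype call (-2.27 ± 0.54, adjusted p = 0.0367) was lost in 9 of the 12 fits that left out 1 array. Among the genes lower under cadmium, CML37 fell less in slim1-1, by 2.81 against 5.05 in wild type, where its cadmium values were 4.05, 4.09 and 3.97 (2.24 ± 0.30, adjusted p = 0.00169). The vacuolar protease gene BETA-VPE had 5.92, 6.16 and 5.95 in wild type under cadmium against 7.42, 7.53 and 7.33 in slim1-1 (1.36 ± 0.15, adjusted p = 0.000523).

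**Figure D5:**
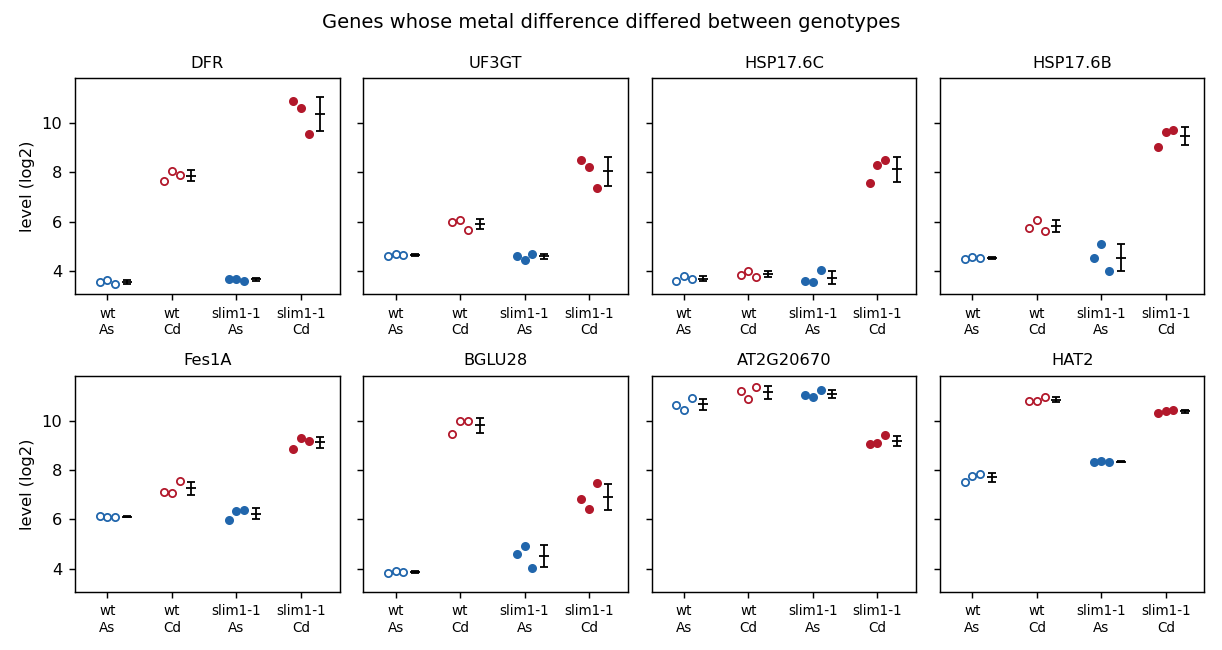
Levels (log2, values normalised over 12 arrays) of 8 genes in each of the 4 groups, wild type (open points) and slim1-1 (filled points) under arsenite (blue) and cadmium (red), with 3 arrays per group and mean ± SD in black. HSP17.6C is near 4 in every group but slim1-1 under cadmium, BGLU28 is highest in wild type under cadmium, and AT2G20670 is lowest in slim1-1 under cadmium.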

How the data were processed

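The 6 slim1-1 arrays and, for the genotype contrast, the 6 wild-type arrays were grouped by their labels. The authors deposited log2 values from RMA, per the submitters' processing notes, which give neither its version nor its options. The deposited medians of the metals lie apart by a step, so all 22810 probe sets were quantile normalised over the 6 arrays (over 12 for the genotype contrast). This forces equal distributions and can hide or create differences that most genes share. Control probe sets (64) were left out of gene tests. Of the others the probe table used here pairs 13513 with 1 gene and 503 with several genes, and does not list 8730. Where a gene had several probe sets, the one with the highest mean was kept, which left 13356 genes, of which 13286 were matched to RefSeq's table of assembly TAIR10.1 for locus tags and symbols. Symbols of other genes are added by hand beside their locus tags. Groups were compared with lmFit and eBayes of limma 3.58.1 under R 4.3.3 (two-sided, Benjamini-Hochberg over all genes, threshold 0.05, and 2-fold as a second rule), and errors are standard errors with n = 3 arrays per group. Levels are intensities of different probes and were not compared between genes by test. Replicate numbers did not pair the arrays of the metals, since the correlations of deviations from the group means were -0.08, -0.01 and -0.19.

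The members and the 59 gene lists were chosen with earlier results of these data known, and lists were completed from the annotation. In 8 lists no member was measured, and many others were measured only in part. The measured members were 6 of 26 listed anthocyanin genes, 7 of 51 other chaperone genes and 13 of 122 auxin genes. For WRKY genes they were 7 of 72, and for metal transport and binding 6 of 57. Lists are described by counts and medians, without a test. Named genes were the 12 largest rises and 12 largest falls with groups that did not overlap and a higher mean above the median level, the 6 largest positive and negative genotype differences, and up to 4 members of each list by p. Not all of them are described. On simulated data with 200 of 13356 genes changed, the slim1-1 contrast recovered 90% of changes of 1 and 98% of changes of 2 on the log2 scale, and the genotype contrast 89% and 98%. The simulated sets differed by a constant step of 1, which quantile normalisation removes. Far fewer genes changed than the 50.5% called between metals in the data. These recovery rates therefore do not cover a step that varies between probe sets, or changes in a large share of genes. Alternatives covered the normalisation, the estimate of spread, array weights, low values, probe sets, a replicate block and each array left out. The precision comes from the spread between arrays only, and there were no detection calls.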

Additional observations from a re-analysis of the deposited data

Results flagged for a closer look

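The difference between cadmium and arsenite differed between slim1-1 and wild type in a test of that difference for 531 genes, and for 35 of the genes named above. Values below are the slim1-1 difference minus the wild-type difference on the log2 scale. Above 0 were HSP17.6C (AT1G53540) at 4.21, HSP17.6B (AT2G29500) at 3.63, DFR at 2.39, CML37 at 2.24, UF3GT at 2.18, UGT75C1 (AT4G14090) at 2.13, Fes1A at 1.75, AT5G19890 at 1.66 and GSTU26 at 1.55. They were followed by BETA-VPE at 1.36, AT1G49570 at 1.33, nad6 at 1.27, XTH18 at 1.22, BGLU44 at 1.05, PUB19 at 1.01, AT1G54050 at 0.85, APS4 at 0.80, AT4G33040 at 0.77 and AT4G27654 at 0.70. LHCB4.3 at 0.63, PRX52 at 0.60, XTH32 at 0.48 and AT4G24700 at 0.42 were the smallest called values above 0 among the named genes. Below 0 were BGLU28 at -3.53, AT5G64190 at -2.57, AT2G20670 at -2.39, AT1G72060 at -2.27, AT2G25200 at -2.07, AT3G60270 at -1.88 and AT1G15010 at -1.31. HAT2 at -1.11, GH3.3 at -0.96, ORA47 at -0.91, APS3 at -0.88 and WRKY22 at -0.83 completed the list.

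Of these 35 genes, 22 kept their call in all 12 fits that left out 1 array, a check chosen after seeing the data, and 13 lost it in at least 1 fit. Those lost were AT4G24700, GH3.3 and XTH32 (in 10 fits each), AT4G27654, AT1G54050 and AT1G72060 (in 9 each), APS3, AT4G33040 and LHCB4.3 (in 8 each), and ORA47, GSTU26, PUB19 and nad6 (in 6 each). All 35 kept their sign in these fits.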

How the results depend on the processing

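The number of genes that differed between the metals in slim1-1 was 6741 and became 12954 on the deposited values, which hold the step between the sets, with 232 higher and 12722 lower. It was 4453 among genes above the median level and 11974 over all probe sets other than controls, where fewer or more features were tested. With a common array median it was 7489 with 4722 higher and 2767 lower, a share of higher calls above that of the joint quantile normalisation (3677 of 6741). Between 5744 and 6334 genes were called when 1 of the 6 arrays was left out. The number at 2-fold or more was 1357 and became 9042 on the deposited values (93 higher and 8949 lower), 2689 over all probe sets other than controls and 652 when the difference was tested against 2-fold itself. It was 1350 to 1402 with 1 array left out. The genotype contrast called 531 genes, 1023 with array weights, 256 with a replicate block and 255 to 744 with 1 of the 12 arrays left out. Its lowest counts came without wild-type cadmium replicate 1 (255), wild-type arsenite replicate 2 (264), slim1-1 cadmium replicate 2 (286), slim1-1 arsenite replicate 2 (303), wild-type arsenite replicate 3 (324) and wild-type cadmium replicate 3 (341), and the highest without slim1-1 arsenite replicate 1 (744); the cause was not tested. The replicate block left 6182 and 1357 calls in the other 2 counts and changed no call of a named gene between metals. Of 35 named genes called in the genotype contrast, 22 kept and 13 lost their call with it, APS3 (adjusted p = 0.0855) and AT1G72060 (adjusted p = 0.096) among the latter, and 0 turned sign. It is an alternative only, as same-numbered slim1-1 arrays of the metals shared no deviation and 0 of 3 matched their own number best, and same-numbered arrays of the genotypes correlated with r of -0.354 to 0.0867 within a metal. The fit per gene was chosen after seeing the data.

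Among the named genes, signs turned on the deposited values for AT1G72060 (-1.18), SDI2 (AT1G04770, -0.88), RCA (-0.27) and GSTU22 (-0.0529), all of which shift with the step; 10 other named genes lost their call there and 86 kept call and direction. AT1G72060, which was not called, also turned with cyclic loess (-0.0220), with array weights (-0.0454) and without slim1-1 arsenite replicate 1 (-0.27), cadmium replicate 1 (-0.17) or cadmium replicate 2 (-0.00387), with a range of -0.27 to 0.27 over the 6 fits that left out 1 array. AT3G60270, also not called, ranged from -0.44 to 0.0148 over these fits and turned without cadmium replicate 3. Of list medians taken relative to all genes, 5 of 38 moved by more than the spread between arrays without slim1-1 arsenite replicate 1, where that of the root markers went from -0.73 to -0.32, and 0 of 38 without any other single slim1-1 array. Restricting lists to genes above the median level turned the sign for β-glucosidases (0.20 to -0.16), class III peroxidases (0.07 to -0.36) and XTH genes (-0.24 to 0.04). The arrays carry no detection calls, so differences of genes near the lower quartile are limited by background.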
